A study of Caenorhabditis elegans with 18 samples.

Results

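The UDP-glucuronosyltransferase genes (ugt) and glutathione transferase genes (gst) of Caenorhabditis elegans were followed in hira-1(-) and N2 animals at the last larval stage (L4) and in adults. The members are the rows of the gene table whose gene name is ugt- or gst- followed by a number, which gave 111 of 45461 rows, 67 of them ugt and 44 of them gst. hira-1(-) animals carried the allele hira-1(gk835598), whose lesion is not described in the labels, and N2 is the wild-type laboratory strain. HIRA, the protein encoded by hira-1, is a chaperone that assembles nucleosomes with the histone variant H3.3 outside DNA replication. All animals were kept at 20°C on plates with the E. coli strain OP50 as food. Messenger RNA of whole animals was enriched by poly(A) selection before paired-end sequencing. Of the 18 samples in the series, 8 libraries are used here: replicates 1 and 2 of hira-1(-) L4, N2 L4, hira-1(-) adults and N2 adults. Separate cultures are not stated for the replicates, and p-values then cover no more than the spread among these libraries, which can be technical.

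Both families carry out the conjugation step of detoxification. UDP-glucuronosyltransferases are membrane enzymes of the endoplasmic reticulum that move a sugar from a UDP-sugar onto lipophilic compounds, which makes them more soluble and ready for export. Glutathione transferases couple the tripeptide glutathione to electrophilic compounds, among them products of lipid peroxidation. In C. elegans the intestine is a main site of this metabolism, many genes of both families respond to drugs, bacteria and oxidants, and the transcription factor SKN-1 controls part of them. In RNA from whole animals, fewer cells of a type and less RNA per cell cannot be told apart.

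The 8 libraries held 26010300 to 31174600 estimated counts. The targeted gene hira-1 (K10D2.1) averaged 24.5 ± 1.12 CPM in hira-1(-) L4 animals and 35.1 ± 3.21 CPM in N2 L4 animals (SD, 2 libraries each), a log2 fold change of -0.52 ± 0.070 (SE) with an adjusted p of 3.26e-05. It averaged 40.4 ± 0.438 CPM in hira-1(-) adults and 109 ± 0.784 CPM in N2 adults (log2 fold change -1.43 ± 0.065, adjusted p = 1.95e-09), so the transcript was present in hira-1(-) and below its N2 level at both stages. CPM was computed by edgeR from the estimated counts with TMM scaling, and fold changes and adjusted p-values are from edgeR's quasi-likelihood test with Benjamini-Hochberg adjustment over all 16770 genes tested. A gene was called at an adjusted p below 0.05. Of the 111 members, 100 passed the filter on low counts (62 ugt and 38 gst). The other 11 (gst-8, gst-17, gst-18, gst-25, gst-34, gst-37, ugt-3, ugt-27, ugt-34, ugt-35 and ugt-38) had at most 13 estimated counts in any library. Because 80 members had an estimated count that was not whole (by more than 0.005) in at least 1 library, some of their reads were shared with other genes, and values of close relatives may trade reads.

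Levels per transcript length (FPKM, as the authors deposited them) were carried by a few members of each family. Outside N2 L4 animals the gst family was led by gst-1, a pi-class enzyme, which had 246 and 240.0 FPKM in hira-1(-) L4 animals, against 193 and 195 FPKM in N2 L4 animals. gst-10, which conjugates a lipid peroxidation aldehyde, had 179.6 and 170.1 FPKM in hira-1(-) L4 animals, against 491 and 539 FPKM in N2 L4 animals. It was therefore first in the FPKM order of N2 L4 animals and overlapped gst-5 in the order of hira-1(-) L4 animals, where gst-7 and gst-5 also overlapped each other. The adult values of gst-10 were 57 and 59.6 FPKM in hira-1(-) adults, against 198 and 191 FPKM in N2 adults, second after gst-1 in N2 adults and eighth in hira-1(-) adults. The ugt family was led in every group by ugt-22, whose product has been linked to the handling of the drug albendazole, with 144 and 153 FPKM in hira-1(-) L4 animals, against 230.1 and 240.2 FPKM in N2 L4 animals. The adult values of ugt-22 were 65.5 and 65.7 FPKM in hira-1(-) adults, against 124 and 138 FPKM in N2 adults. The next members were ugt-62, ugt-47 and ugt-46 at L4 in both genotypes, while in adults they were ugt-47, ugt-62 and ugt-64 in hira-1(-) and ugt-46, ugt-47 and ugt-62 in N2; ugt-62 and ugt-64 overlapped each other in both genotypes in adults, and ugt-47 and ugt-46 did so in hira-1(-) L4 animals. The median member lay far below these leaders, at 4.98 FPKM in hira-1(-) L4 and 4.88 FPKM in N2 L4 for ugt, and at 3.76 FPKM and 3.75 FPKM in the same groups for gst.

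**Figure D1:**
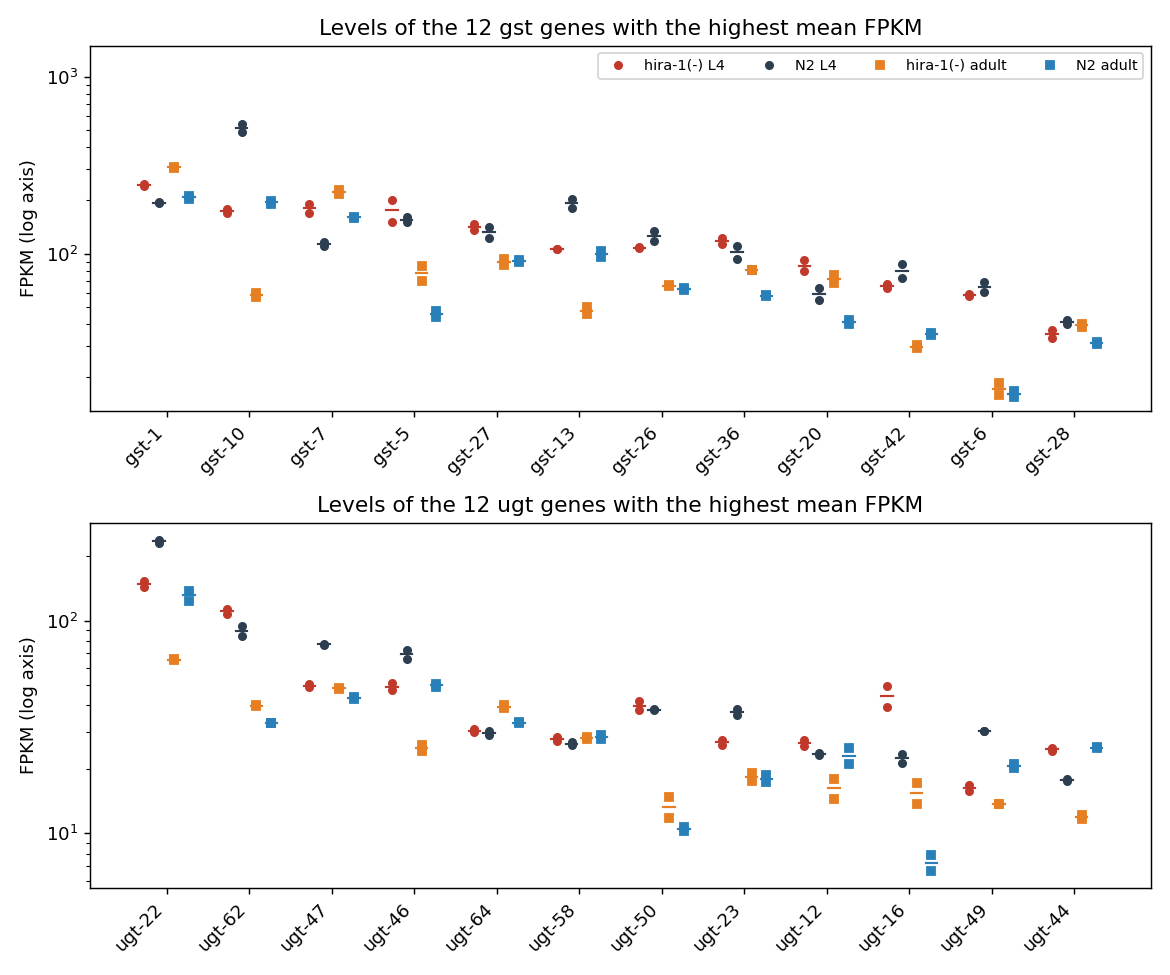
FPKM (log axis) of the 12 gst genes and the 12 ugt genes with the highest mean level, by library; circles are L4 and squares adults, hira-1(-) in red and orange and N2 in dark and light blue, with bars at the mean of 2 libraries. gst-10 lies at 179.6 and 170.1 FPKM in hira-1(-) L4, against 491 and 539 FPKM in N2 L4, and ugt-22 leads the ugt genes in every group.

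Summed over the family, ugt levels were 1373 and 1407 CPM in hira-1(-) L4 animals, against 1787 and 1801 CPM in N2 L4 animals. They were 892 and 897 CPM in hira-1(-) adults, against 1227 and 1226 CPM in N2 adults. The ugt sum was lower in hira-1(-) at both stages without overlap, also on the FPKM scale (887 and 909.6 FPKM in hira-1(-) L4, against 1036 and 1061 FPKM in N2 L4) and with ugt-22 left out (1143 and 1165 CPM in hira-1(-) L4, against 1379 and 1380 CPM in N2 L4). The gst sum was 1163 and 1207 CPM in hira-1(-) L4 animals, against 1380 and 1490 CPM in N2 L4 animals. Without gst-10 the gst sums were 1037 and 1087 CPM in hira-1(-) L4 and 997 and 1076 CPM in N2 L4, which overlap, and in FPKM they were 1565 and 1643 in hira-1(-) L4 and 1359 and 1482 in N2 L4. In adults the gst sum was 863 and 901 CPM in hira-1(-), against 944 and 929 CPM in N2, and on the deposited FPKM scale the adult order was the other way, with 1254 and 1284 FPKM in hira-1(-) against 1154 and 1144 FPKM in N2. The 2 scales use different library scaling, and the direction of the adult gst sum differed between them. Without gst-10 the adult gst sums were 821 and 856 CPM in hira-1(-), against 772 and 764 CPM in N2, so gst-10 also decides the direction on the CPM scale.

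Within both families some members rose and others fell. At L4, 19 ugt genes were higher and 23 lower in hira-1(-) than in N2 among 62 tested, with a median log2 fold change of -0.12 (0.018 with library totals, which moved the median of all genes to 0.24). Of the 38 gst genes tested, 14 were higher and 12 lower, with a median of 0.052. Over all 16770 genes 58% were called at L4, 35.5% as higher and 22.6% as lower, with a median of 0.10. Changes of at least 2-fold were made by 11 ugt genes upward and 11 downward and by 8 gst genes upward and 4 downward, while 11% of all genes were called as at least 2-fold higher and 5.8% as at least 2-fold lower. The libraries of the genotypes did not overlap at L4 for 83 of the 100 tested members, and for 78.9% of all genes; in adults it was also 83 of 100, and 78.8% of all genes. Leaving out N2 L4 replicate 1 brought the higher gst genes at L4 down to 8.

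In adults, 17 ugt genes were higher and 25 lower in hira-1(-), with a median log2 fold change of -0.17, and 12 gst genes were higher and 7 lower, with a median of 0.11. The background was 55.1% of all genes called, 28.6% as higher and 26.5% as lower, with a median of 0.029. At least 2-fold changes were found for 8 ugt genes upward and 9 downward and for 7 gst genes upward and 3 downward, against 15.2% and 6.28% of all genes. The adult split depended on the scaling, as did that of all genes. The share of higher among called ugt genes was 40.5% with TMM, 54.5% with library totals and 51.2% with limma on the deposited log2 FPKM values. For gst genes these shares were 63.2%, 75% and 78.9%, and over all genes they were 51.9%, 75.6% and 75.8%. With RLE scaling they were 39.5% for ugt genes, 57.9% for gst genes and 44.8% over all genes. With library totals the median over all genes was 0.24 in adults, and that of the ugt genes was 0.033.

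Of the 100 tested members, 47 were called at both stages, 40 of them in the same direction (21 higher, 19 lower) and 7 in opposite directions. Those called at both stages were 69.1% of the members called at L4 and 77% of those called in adults, while over all genes these shares were 61.2% and 64.5%. All 14 gst genes called at both stages kept their direction, as did 26 of the 33 ugt genes; over all genes 62.6% of those called at both stages did. The 18 members called at neither stage include ugt-64, one of the more abundant ugt genes, with 45.6 and 43.9 CPM in hira-1(-) L4 animals, against 46.6 and 48.03 CPM in N2 L4 animals, and gst-44, an omega-class enzyme, which stayed below 1.5 CPM in all 8 libraries. ugt-64 was called lower at L4 in 4 of the 16 alternatives, among them without N2 L4 replicate 1 and without N2 adult replicate 1 (adjusted p 0.0146 to 0.648), and higher in adults in 2, library totals and limma (0.00222 to 0.952).

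**Figure D2:**
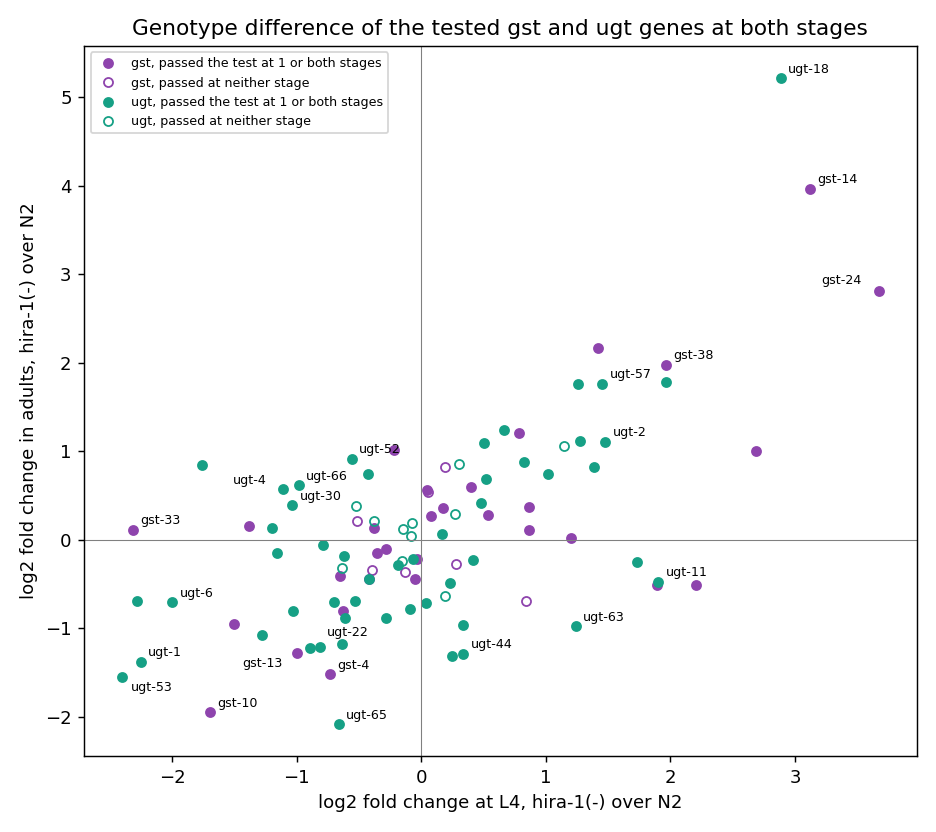
Log2 fold change of hira-1(-) over N2 at L4 (horizontal) and in adults (vertical) for the 100 tested members, filled where the gene passed the test at 1 or both stages. gst-24 (3.67 at L4, 2.81 in adults) and gst-10 (-1.69 and -1.95) lie in the same-direction quadrants, and ugt-63, ugt-44 and ugt-11 lie at lower right.

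Among the gst genes that were higher in hira-1(-), gst-24 (F37B1.1, chromosome II) moved most among the members with at least 5 CPM in a genotype. It had 49.4 and 45.7 CPM in hira-1(-) L4 animals, against 3.49 and 3.97 CPM in N2 L4 animals. The adult values were 28.3 and 30.3 CPM in hira-1(-) adults, against 4.76 and 3.66 CPM in N2 adults. The genotypes were far apart at both stages, and the fold change was 12.7 at L4 (log2 3.67 ± 0.12 SE, adjusted p = 1.22e-10) and 6.999 in adults (log2 2.81 ± 0.12, adjusted p = 1.18e-09). The difference was smaller in adults, with -0.86 on the log2 scale for adults minus L4 (interaction, adjusted p = 0.00136). In N2 the gene did not pass between the stages (0.17 for adult over L4, adjusted p = 0.323).

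gst-38 (F35E8.8, chromosome V) followed with 57.99 and 64.1 CPM in hira-1(-) L4 animals, against 13.97 and 17.3 CPM in N2 L4 animals, and with 18.8 and 21.4 CPM in hira-1(-) adults, against 4.47 and 5.67 CPM in N2 adults. It was higher by about the same log2 amount at both stages, 1.97 ± 0.12 at L4 and 1.98 ± 0.14 in adults (adjusted p = 4.50e-08 and 2.86e-07), although its level was lower in adults of both genotypes. gst-22 had 9.98 and 9.61 CPM in hira-1(-) L4 animals, against 5.29 and 6.102 CPM in N2 L4 animals, and 8.94 and 8.89 CPM in hira-1(-) adults, against 3.89 and 3.84 CPM in N2 adults (log2 0.78 and 1.21). gst-7, an abundant member that responds to oxidants, had 112 and 127 CPM in hira-1(-) L4 animals, against 81.1 and 83.8 CPM in N2 L4 animals (log2 0.53 ± 0.062, adjusted p = 9.09e-06). The gst-7 libraries did not overlap in adults either, with 153 and 164 CPM in hira-1(-) adults, against 133 and 129 CPM in N2 adults and a smaller log2 fold change of 0.27 ± 0.061 (adjusted p = 0.00203). gst-16 was higher at L4 by a log2 of 0.87 (adjusted p = 5.99e-04) and was at 0.37 in adults, which did not pass (adjusted p = 0.0591). At L4 gst-20 was higher by 0.40 (adjusted p = 0.0029), a call that ended without N2 L4 replicate 1, where the value was 0.18 (adjusted p 1.08e-04 to 0.123 over the 16 alternatives). In adults gst-20 was higher by 0.59 (adjusted p = 2.81e-04).

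Other abundant gst genes differed less. gst-1 had 152 and 148 CPM in hira-1(-) L4 animals, against 133 and 133 CPM in N2 L4 animals (log2 0.18 ± 0.049, adjusted p = 0.00805). That L4 call ended in 7 of the 16 alternatives, among them without hira-1(-) L4 replicate 1, without either N2 L4 library and without N2 adult replicate 1, where the values were between 0.062 and 0.15. The adult values of gst-1 were 198 and 206 CPM in hira-1(-) adults, against 162 and 153 CPM in N2 adults, and the gene was called higher by 0.36 ± 0.049 (adjusted p = 4.91e-05). gst-5, which like gst-10 conjugates a lipid peroxidation aldehyde, had 99.2 and 132 CPM in hira-1(-) L4 animals, against 116 and 107 CPM in N2 L4 animals, and these libraries overlap. The adult values of gst-5 were 48.5 and 60.1 CPM in hira-1(-) adults, against 35.2 and 38.1 CPM in N2 adults, a log2 fold change of 0.56 ± 0.18 with an adjusted p of 0.041 that ranged from 7.89e-04 to 0.192 over the 16 alternatives and lost the call in 7 of them, without either N2 L4 library, without hira-1(-) adult replicate 2 and without either N2 adult library among them. gst-27 was called lower in hira-1(-) adults (log2 -0.22, adjusted p = 0.0123) and at -0.012 with library totals (adjusted p 0.0011 to 0.931 over the alternatives), so its call rests on the scaling; the call also ended without hira-1(-) adult replicate 2 or N2 adult replicate 2.

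Among gst genes with at least 5 CPM, those lower in hira-1(-) were headed by gst-10 (Y45G12C.2, chromosome V). It had 126 and 119.5 CPM in hira-1(-) L4 animals, against 382 and 414 CPM in N2 L4 animals, and 42.3 and 45.03 CPM in hira-1(-) adults, against 172 and 165 CPM in N2 adults. The hira-1(-) libraries lay far below the N2 libraries at both stages, and the transcript was 3.24-fold lower at L4 (log2 -1.69 ± 0.057, adjusted p = 1.59e-10) and 3.86-fold lower in adults (log2 -1.95 ± 0.061, adjusted p = 6.19e-11). gst-13 had 70.5 and 69.6 CPM in hira-1(-) L4 animals, against 133 and 147 CPM in N2 L4 animals, and 34.6 and 32.2 CPM in hira-1(-) adults, against 78.1 and 84.1 CPM in N2 adults (log2 -0.998 ± 0.061 and -1.28 ± 0.065). Its genotypes did not overlap at either stage, and it followed gst-10 among the lower gst genes with at least 5 CPM at L4.

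gst-4 (K08F4.7, chromosome IV), whose promoter is a much used reporter of SKN-1 and oxidative stress, also belongs to those that were lower. It had 24.7 and 23.5 CPM in hira-1(-) L4 animals, against 37.04 and 42.9 CPM in N2 L4 animals (log2 -0.73 ± 0.097, adjusted p = 2.80e-05). The adult values were 8.94 and 10.2 CPM in hira-1(-) adults, against 29.3 and 25.6 CPM in N2 adults (log2 -1.52 ± 0.11, adjusted p = 1.34e-07). The gst-4 difference was larger in adults, with -0.79 ± 0.15 on the log2 scale for adults minus L4 (interaction, adjusted p = 5.99e-04), since its level was lower in adults than at L4 in both genotypes but by more in hira-1(-) (-1.33 for adult over L4) than in N2 (-0.54). gst-42, the zeta-class enzyme that acts as maleylacetoacetate isomerase in tyrosine breakdown, had 56.3 and 59.3 CPM in hira-1(-) L4 animals, against 70.5 and 84.4 CPM in N2 L4 animals (log2 -0.42 ± 0.074, adjusted p = 3.22e-04); without N2 L4 replicate 1 the value was -0.66. The adult values of gst-42 were 28.1 and 27.5 CPM in hira-1(-) adults, against 37.7 and 38.03 CPM in N2 adults (log2 -0.45 ± 0.082, adjusted p = 5.29e-04), and this call ended with limma on the log2 FPKM values (-0.23; adjusted p 3.36e-06 to 0.0867 over the alternatives). gst-39 was lower at both stages, with log2 fold changes of -0.63 at L4 and -0.80 in adults (adjusted p = 8.02e-05 and 2.49e-05). gst-28 was lower at L4 (log2 -0.38; adjusted p = 0.00154), with -0.24 under library totals, and at 0.13 in adults, where it did not pass (adjusted p = 0.199). gst-43 was called lower in adults (-0.45, adjusted p 0.0114, 0.00375 to 0.134 over the alternatives) and lost the call without hira-1(-) adult replicate 1, with library totals and with limma.

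**Figure D3:**
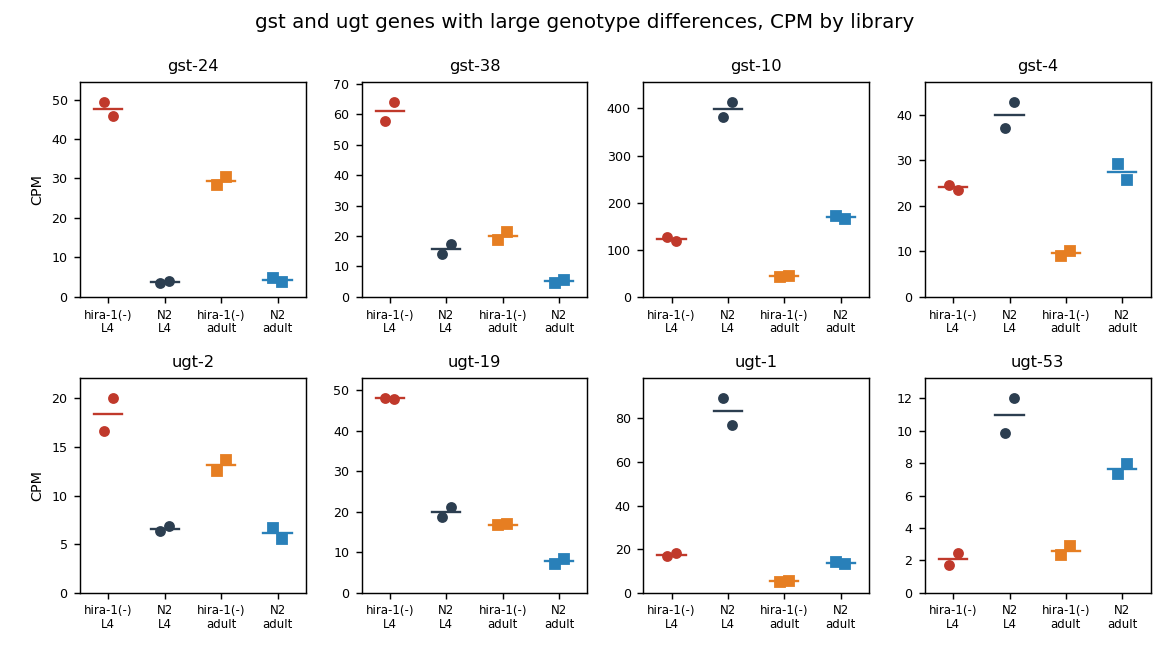
CPM by library of 4 gst genes and 4 ugt genes with large genotype differences, in hira-1(-) and N2 at L4 (circles) and in adults (squares), with bars at the mean of 2 libraries. gst-24, gst-38, ugt-2 and ugt-19 lie higher in hira-1(-) at both stages, and gst-10, gst-4, ugt-1 and ugt-53 lie lower, as for gst-10 with 42.3 and 45.03 CPM in hira-1(-) adults against 172 and 165 CPM in N2 adults.

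Few of the ugt genes have a known substrate in C. elegans, so they are ordered here by direction. Among those higher in hira-1(-), ugt-2 had 16.6 and 20.1 CPM in hira-1(-) L4 animals, against 6.34 and 6.84 CPM in N2 L4 animals, and 12.5 and 13.7 CPM in hira-1(-) adults, against 6.64 and 5.56 CPM in N2 adults. No library overlapped, and the log2 fold changes were 1.48 ± 0.13 and 1.11 ± 0.13 (adjusted p = 6.49e-07 and 1.91e-05). ugt-19 was more abundant, with 48.2 and 47.8 CPM in hira-1(-) L4 animals, against 18.7 and 21.1 CPM in N2 L4 animals, and 16.8 and 16.8 CPM in hira-1(-) adults, against 7.196 and 8.24 CPM in N2 adults (log2 1.27 ± 0.087 and 1.12 ± 0.10). Its genotypes were apart at both stages by about the same log2 amount. ugt-57 had 13.1 and 12.02 CPM in hira-1(-) L4 animals, against 3.93 and 5.26 CPM in N2 L4 animals (log2 1.45 ± 0.15, adjusted p = 3.91e-06) and was called higher in adults too (1.76, adjusted p = 0.00202) at below 1 CPM in all 4 adult libraries. ugt-39 and ugt-13 were higher at L4 by 1.39 and 1.02 and in adults by 0.82 and 0.74.

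ugt-21 had 9.27 and 9.95 CPM in hira-1(-) adults, against 3.69 and 4.41 CPM in N2 adults (log2 1.24 ± 0.12, adjusted p = 2.81e-06), the largest log2 change upward in adults among ugt genes with at least 5 CPM, and was also higher at L4 by 0.66 (adjusted p = 6.90e-05). ugt-25 had 15.1 and 11.9 CPM in hira-1(-) adults, against 7.18 and 5.56 CPM in N2 adults (log2 1.09 ± 0.17, adjusted p = 2.44e-04). At L4 its value was 0.50 (adjusted p = 0.0146), a call that ended without hira-1(-) L4 replicate 2 or without N2 L4 replicate 2, where the value was 0.22 (adjusted p 0.00254 to 0.207 over the alternatives). ugt-16 had 64.4 and 80.8 CPM in hira-1(-) L4 animals, against 43.3 and 38.6 CPM in N2 L4 animals, with replicates of hira-1(-) further apart than those of most members. Its log2 fold change was 0.83 ± 0.15 (adjusted p = 0.00275), and without N2 L4 replicate 2 it was 0.64 and not called (adjusted p 8.89e-08 to 0.0764 over the alternatives). In adults ugt-16 was higher by 0.88 (adjusted p = 0.00465).

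Among the ugt genes lower in hira-1(-), ugt-1 (AC3.7, chromosome V) had 16.7 and 18.3 CPM in hira-1(-) L4 animals, against 89.6 and 76.9 CPM in N2 L4 animals, and 4.896 and 5.503 CPM in hira-1(-) adults, against 14.1 and 12.99 CPM in N2 adults. It was 4.75-fold lower at L4 (log2 -2.25 ± 0.092, adjusted p = 8.02e-10) and 2.602-fold lower in adults (log2 -1.38 ± 0.12, adjusted p = 7.75e-07). ugt-53 (T03D3.1, chromosome V) had 1.69 and 2.44 CPM in hira-1(-) L4 animals, against 9.87 and 12.1 CPM in N2 L4 animals, and 2.34 and 2.86 CPM in hira-1(-) adults, against 7.31 and 7.93 CPM in N2 adults (log2 -2.401 ± 0.19 and -1.55 ± 0.19). ugt-1 and ugt-53 thus differed most at L4 among the ugt genes with at least 5 CPM. ugt-6 had 9.64 and 10.9 CPM in hira-1(-) L4 animals, against 44.4 and 37.5 CPM in N2 L4 animals (log2 -1.997 ± 0.12, adjusted p = 1.86e-08) and a smaller difference in adults (-0.71 ± 0.15, adjusted p = 0.0014). ugt-51 and ugt-5 were lower at both stages, ugt-51 with log2 fold changes of -1.28 and -1.08, and ugt-5 with -0.89 and -1.22. ugt-8 was lower at L4 (log2 -1.201; adjusted p = 3.72e-05) and at 0.14 in adults (adjusted p = 0.588).

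The abundant ugt genes did not move together. ugt-22 (C08F11.8, chromosome IV) had 229 and 242 CPM in hira-1(-) L4 animals, against 408 and 421 CPM in N2 L4 animals, and 111 and 112 CPM in hira-1(-) adults, against 245 and 269.9 CPM in N2 adults. The genotypes did not overlap, and the gene was lower at both stages, with log2 fold changes of -0.81 ± 0.056 at L4 and -1.21 ± 0.057 in adults (adjusted p = 7.54e-08 and 2.95e-09). ugt-46 had 83.4 and 77.4 CPM in hira-1(-) L4 animals, against 119.7 and 131 CPM in N2 L4 animals, and 45.2 and 43.005 CPM in hira-1(-) adults, against 102 and 98.5 CPM in N2 adults (log2 -0.64 ± 0.058 and -1.18 ± 0.061). ugt-47 had 76.8 and 73.9 CPM in hira-1(-) L4 animals, against 132 and 128 CPM in N2 L4 animals (log2 -0.79 ± 0.047, adjusted p = 2.17e-08). In adults ugt-47 was at -0.064 and did not pass (adjusted p = 0.281), and with library totals the adult value changed sign to 0.14 and was called higher (adjusted p = 0.0263). ugt-62 had 161 and 168 CPM in hira-1(-) L4 animals, against 139.9 and 153 CPM in N2 L4 animals (log2 0.17 ± 0.052, adjusted p = 0.0158). That call ended in 7 of 16 alternatives and the value was -0.016 without N2 L4 replicate 1; it was also lost without hira-1(-) L4 replicate 2, without N2 L4 replicate 2 and without N2 adult replicate 1 (adjusted p 3.04e-04 to 0.859 over the alternatives).

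Some of the largest folds belonged to members with few counts, which the rule for named genes left out; ugt-18, gst-14, gst-19, gst-33, gst-35, ugt-14 and ugt-11 were chosen after their values were seen. ugt-18 had 124 counts over both hira-1(-) adult libraries and 3 counts over both N2 adult libraries, a ratio of 40.04 with an exact 95% binomial interval of 13.4 to 197 that covers counting error only. gst-14 had 1.69 and 1.55 CPM in hira-1(-) L4 animals, against 0.108 and 0.257 CPM in N2 L4 animals, and 1.37 and 1.77 CPM in hira-1(-) adults, against 0.0835 and 0.108 CPM in N2 adults. It was called higher at both stages, with log2 fold changes of 3.12 ± 0.39 and 3.96 ± 0.46 that depend on the handling of low counts (1.59 and 1.66 with limma on log2 FPKM plus 1). gst-19 was called higher by 2.69 at L4 and 1.002 in adults; the adult call was lost without N2 adult replicate 2 and with DESeq2 (adjusted p 0.00118 to 0.0858 over the alternatives). gst-33 had 0.507 and 0.3303 CPM in hira-1(-) L4 animals, against 2.02 and 2.17 CPM in N2 L4 animals, and 0.556 and 0.48998 CPM in hira-1(-) adults, against 0.585 and 0.395 CPM in N2 adults, so the genotypes were apart at L4 (log2 -2.31 ± 0.31) and overlapped in adults.

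The genotype difference itself differed between the stages for part of the members. The interaction (genotype difference in adults minus that at L4) was called for 14 ugt genes upward and 15 downward and for 5 gst genes upward and 8 downward, while 50.4% of all genes were called, 20.7% upward and 29.7% downward. Differences of at least 2-fold were called for 9 ugt genes upward and 7 downward and for 3 gst genes in each direction, against 11.6% and 9.31% of all genes. The gst split was sensitive to the settings and rests on few calls. Higher gst genes made up 38.5% of 13 gst calls with TMM and 61.5% of 13 with library totals. They made up 28.6% of 14 with RLE scaling and 45.5% of 11 with limma on log2 FPKM. Over all genes these shares were 41.0%, 47.6%, 36.8% and 48.7%. The 7 members called in opposite directions at the 2 stages were all ugt genes.

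ugt-63 had 3.25 and 4.39 CPM in hira-1(-) L4 animals, against 1.73 and 1.51 CPM in N2 L4 animals. The adult values were 28.1 and 28.5 CPM in hira-1(-) adults, against 52.9 and 58.7 CPM in N2 adults. It was higher in hira-1(-) at L4 (1.24 ± 0.18, adjusted p = 6.36e-05) and lower in adults (-0.98 ± 0.099, adjusted p = 3.48e-06), with an interaction of -2.22 ± 0.20 (adjusted p = 1.78e-06). Its log2 fold change for adult over L4 was 2.89 in hira-1(-) and 5.104 in N2, where it was the largest upward among the members. ugt-44 had 40.5 and 41.4 CPM in hira-1(-) L4 animals, against 32.4 and 32.5 CPM in N2 L4 animals, and 20.4 and 21.6 CPM in hira-1(-) adults, against 51.8 and 51.02 CPM in N2 adults (interaction -1.63 ± 0.090, adjusted p = 1.63e-08). In hira-1(-) ugt-44 was lower in adults than at L4 (-0.96), while in N2 it was higher in adults (0.66). ugt-11 had 2.098 and 2.42 CPM in hira-1(-) L4 animals, against 0.612 and 0.588 CPM in N2 L4 animals, and 3.56 and 2.75 CPM in hira-1(-) adults, against 4.84 and 3.98 CPM in N2 adults (interaction -2.38 ± 0.33, adjusted p = 6.16e-05). Its adult call (adjusted p = 0.048) was lost in 9 of 16 alternatives, including without either hira-1(-) L4 library, hira-1(-) adult replicate 2 or N2 adult replicate 1 (0.0236 to 0.289).

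In the other 4 the order was turned round. ugt-4 had 2.27 and 1.55 CPM in hira-1(-) L4 animals, against 4.25 and 3.96 CPM in N2 L4 animals, and 12.99 and 12.5 CPM in hira-1(-) adults, against 8.64 and 8.503 CPM in N2 adults (interaction 1.68 ± 0.23, adjusted p = 4.91e-05). ugt-52 had 7.48 and 7.597 CPM in hira-1(-) L4 animals, against 12.1 and 10.1 CPM in N2 L4 animals, and 5.67 and 5.62 CPM in hira-1(-) adults, against 2.96 and 3.01 CPM in N2 adults (interaction 1.47 ± 0.20, adjusted p = 4.51e-05). Both were lower in hira-1(-) at L4 and higher in hira-1(-) adults without overlap. ugt-30 and ugt-66 had L4 differences of -1.03 and -0.98 and adult differences of 0.39 and 0.61, with interactions of 1.43 and 1.59 (adjusted p = 1.67e-05 and 1.24e-04). Their adult calls were each lost in 4 of 16 alternatives, without either hira-1(-) adult library or N2 adult replicate 2 and with DESeq2 (adjusted p 6.83e-04 to 0.177 for ugt-30 and 0.00275 to 0.14 for ugt-66 over the alternatives).

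2 further ugt genes stood out by an adult difference much larger than the L4 one. ugt-65 had 15.8 and 14.8 CPM in hira-1(-) L4 animals, against 21.7 and 26.7 CPM in N2 L4 animals, and 2.49 and 2.98 CPM in hira-1(-) adults, against 10.9 and 12.3 CPM in N2 adults. It was lower at both stages, with log2 fold changes of -0.66 ± 0.12 at L4 and -2.08 ± 0.15 in adults (interaction -1.42 ± 0.20, adjusted p = 6.09e-05). ugt-43 was at 0.25 at L4 (adjusted p = 0.222) and lower in adults, at -1.32 ± 0.16 (adjusted p = 2.07e-05), with 4.64 and 3.47 CPM in hira-1(-) adults, against 11.01 and 9.22 CPM in N2 adults.

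**Figure D4:**
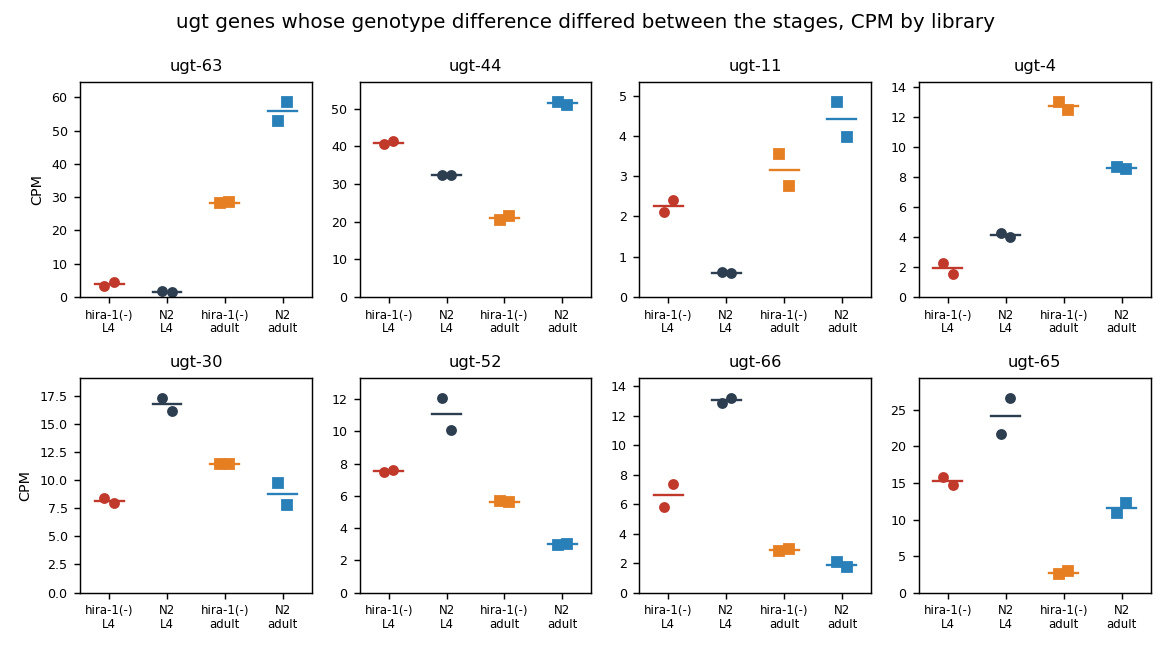
CPM by library of 8 ugt genes in hira-1(-) and N2 at L4 (circles) and in adults (squares), with bars at the mean of 2 libraries. In the first 3 panels hira-1(-) lies above N2 at L4 and below it in adults, in the next 4 it lies below N2 at L4 and above it in adults, and ugt-65 is lower in hira-1(-) at both stages.

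In both families more members were lower than higher in adults relative to L4. In hira-1(-), adults over L4, 12 ugt genes were higher and 36 lower (median log2 fold change -0.44) and 6 gst genes were higher and 17 lower (median -0.32), while of all genes 74.4% were called, 36% as higher and 38.4% as lower (median -0.078). In N2, adults over L4, 13 ugt genes were higher and 33 lower (median -0.60) and 10 gst genes were higher and 23 lower (median -0.57), while of all genes 81.6% were called, 38.2% as higher and 43.4% as lower (median -0.15). Changes of at least 2-fold in hira-1(-) numbered 7 upward and 18 downward for ugt and 3 upward and 10 downward for gst (14.2% and 22.7% of all genes), and in N2 6 upward and 19 downward for ugt and 6 upward and 11 downward for gst (21.8% and 30.3% of all genes). Among the named members, ugt-57 (-3.86 in hira-1(-) and -4.17 in N2), ugt-1 (-1.75 and -2.62), gst-38 (-1.604 and -1.62) and gst-10 (-1.49 and -1.24) were lower in adults of both genotypes. gst-1 was higher in adults of both genotypes, by 0.43 in hira-1(-) and 0.25 in N2. The stage and genotype comparisons share libraries, so their values are given side by side only.

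Some markers of tissues also differed between the same groups. Of all genes tested, 58% were called at L4 (35.5% higher, 22.6% lower) and 55.1% in adults (28.6% higher, 26.5% lower). At L4 the summed level of 14 germ line markers was 4670 to 4774 CPM in hira-1(-) and 2470 to 2633 CPM in N2, with 13 of 14 called higher, among them the oocyte gene puf-5 (3.296 on the log2 scale) and prg-1 (1.43), a Piwi protein gene. In adults the germ line sum was 9146 to 9493 CPM in hira-1(-) and 8649 to 9255 CPM in N2, with 5 called higher and 1 lower. The sum of 16 intestine markers at L4 was 7282 to 7435 CPM in hira-1(-) and 7752 to 8504 CPM in N2, with 3 of 15 tested called higher and 11 lower. In adults the intestine sum was 5587 to 5862 CPM in hira-1(-) and 3988 to 4250 CPM in N2, with 6 called higher, such as the cysteine protease gene cpr-1 (3.09) and ifb-2 (1.195), and 5 lower, such as mtl-2 (-1.296), a metallothionein gene, and pho-1 (-0.57), and a median of -0.025. cpr-1 alone had 1042 and 1078 CPM in hira-1(-) adults, against 127 and 122 CPM in N2 adults. Of 10 body wall muscle markers, 8 were lower and none higher at L4 (sum 6670.4 to 7668 CPM in hira-1(-) and 10954 to 14982 CPM in N2), while 6 were higher and 3 lower in adults (3517 to 3877 CPM in hira-1(-) and 3363 to 3740.1 CPM in N2). Of 10 neuron markers, 2 were higher and 2 lower at L4 (369 to 372 CPM in hira-1(-) and 376 to 399.7 CPM in N2), and 4 were higher and 1 lower in adults (319.9 to 328 CPM in hira-1(-) and 267 to 283 CPM in N2). Among 10 hypodermis markers, 3 were higher and 4 lower at L4 (1149 to 1152 CPM in hira-1(-) and 1688 to 1848 CPM in N2) and 5 higher and 1 lower in adults (919 to 927 CPM in hira-1(-) and 2727 to 2905 CPM in N2). The cuticle collagens bli-1 and rol-6, abundant at L4, were at 16.3 and 18.3 CPM in hira-1(-) adults and at 1.65 and 1.22 CPM in N2 adults. The lower hypodermis sum in hira-1(-) adults was carried by the adult cuticle collagen col-19, named after its values were seen, with 664 and 671 CPM in hira-1(-) adults, against 2685 and 2509.9 CPM in N2 adults. No marker on the tissue lists was at 0 in every library. The part of tissue content and of developmental timing in the ugt and gst differences was not tested.

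Neighbouring members did not always move alike. By gene order in assembly WBcel235, 61 of the 111 members lie in 16 runs with at most 1 other protein-coding gene between neighbours; 42 of the 67 ugt genes are on chromosome V and 25 of the 44 gst genes on chromosome II. In a run of 9 gst genes on chromosome II (gst-20, gst-24, gst-15, gst-14, gst-12, gst-16, gst-19, gst-17 and gst-18), 6 of the 7 tested were higher in hira-1(-) at L4 and 4 in adults, and none was called lower at either stage; of all genes 35.5% were higher at L4 and 28.6% in adults, and 22.6% and 26.5% were lower. Some of these calls were weak. The L4 value of gst-20 was 0.18 without N2 L4 replicate 1, and the adult call of gst-19 was lost with DESeq2. gst-14 was near the floor in N2, with means of 0.295 FPKM at L4 and 0.14 FPKM in adults. In the other run of 9 on that chromosome (gst-26, gst-27, gst-28, gst-29, gst-39, gst-31, gst-32, gst-34 and gst-35), 1 of 8 tested was higher and 5 were lower at L4, and 2 were lower in adults. The 1 higher call was gst-32, which rests on 11 counts over both hira-1(-) L4 libraries and 2 over both N2 L4 libraries (ratio 5.05, exact 95% binomial interval 1.103 to 46.9). In a run of 8 ugt genes on chromosome V, 4 were higher and 1 lower at L4, and 3 were higher and 3 lower in adults. Of the higher calls at L4, ugt-11, ugt-67 and ugt-14 were near the floor in N2 L4 animals, with means of 0.335, 0.43 and 0.185 FPKM. ugt-67 and ugt-14 were also called higher in adults, with means of 0.085 and 0.16 FPKM in N2 adults. The lower call of ugt-11 in adults was lost in 9 of 16 alternatives. The adjacent ugt-1 and ugt-2 were called in opposite directions at both stages.

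**Figure D5:**
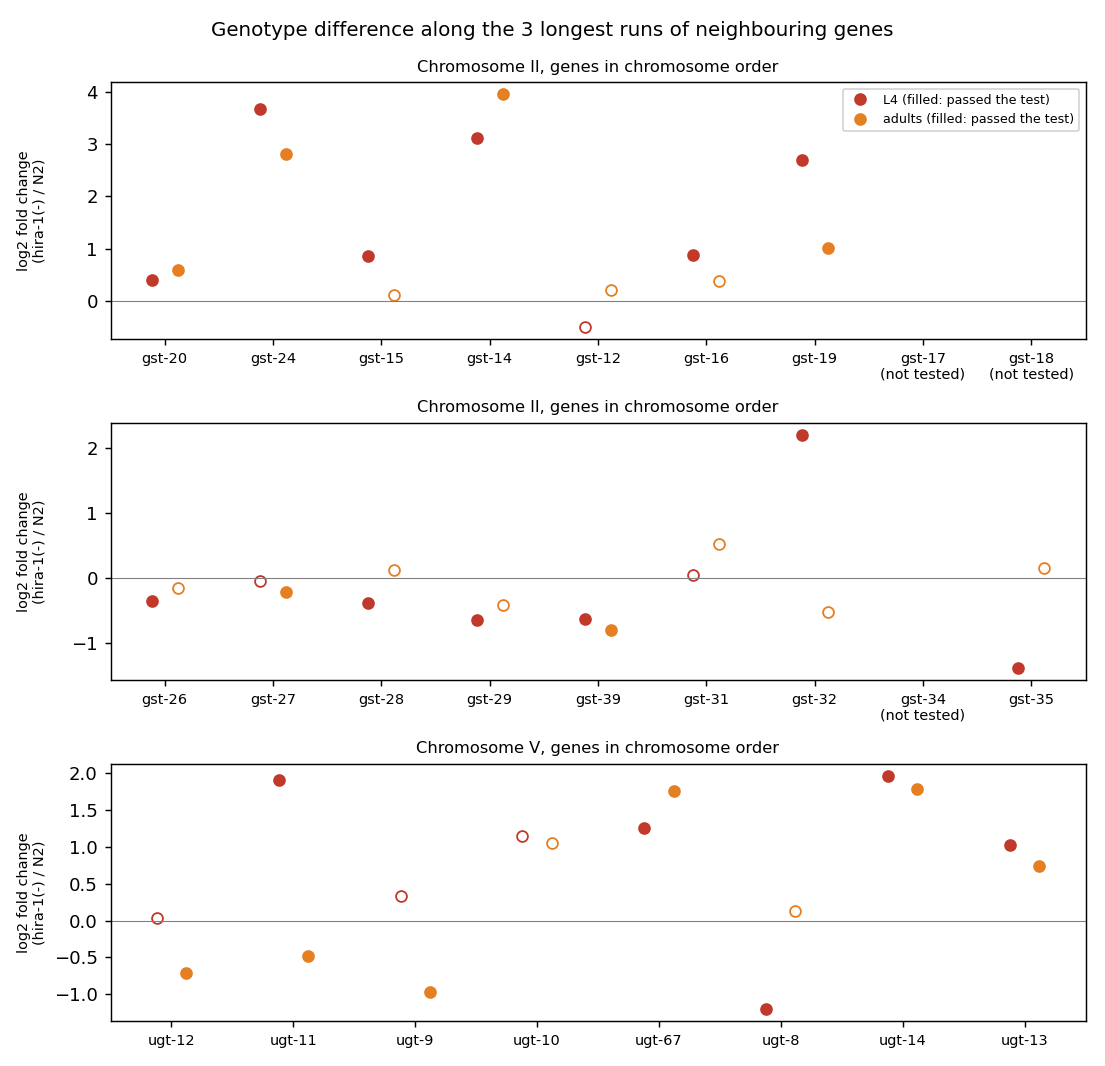
Log2 fold change of hira-1(-) over N2 for the members of the 3 longest runs of neighbouring genes, in chromosome order (spacing not to scale), at L4 and in adults, filled where the gene passed the test. The upper run holds 6 higher calls at L4 and none lower, and the lower run on chromosome V holds calls in both directions.

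Members most like the most changed ones were sought, with the latter taken from called members with at least 5 CPM in a genotype and no overlap. The measure was Pearson's r of log2 of CPM plus 0.5 over the 8 libraries, as a description of libraries that share stage and genotype. gst-24 was followed by ugt-14 (r = 0.985), ugt-2 (0.982) and gst-14 (0.978). Of these, ugt-14 and gst-14 were near the floor in N2, with means of 0.185 and 0.295 FPKM in N2 L4 animals. ugt-53 was followed by ugt-49 (0.948), ugt-20 (0.845) and gst-39 (0.838). ugt-65 was followed by ugt-26 (0.973), gst-4 (0.972) and gst-43 (0.968).

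The genes that supply, regulate and accompany these enzymes were counted in the same way. Over all genes 35.5% were called higher and 22.6% lower at L4, and 28.6% and 26.5% in adults. No gene of these lists, here and below, was refitted under the alternative settings. Library totals moved the adult median of all genes from 0.029 to 0.24, so small adult changes in these lists can depend on the scaling. Of 9 genes of glutathione synthesis and recycling, 2 were higher and none lower at L4: trxr-1, a thioredoxin reductase, by 0.21, and gss-1, the glutathione synthetase, by 0.19. In adults 1 was higher and 4 were lower, among them gcs-1, which encodes the rate-limiting enzyme of glutathione synthesis, at -0.30 (adjusted p = 1.74e-04) and glrx-5, a glutaredoxin, at -0.49. For UDP-sugar supply, gale-1, an epimerase of UDP-sugars, was higher at L4 (0.19) and in adults (0.25), and sqv-4, which makes UDP-glucuronic acid, was lower in adults (-0.34) and did not pass at L4 (0.13, adjusted p = 0.0509). Of 5 genes of the omega and kappa classes named gsto and gstk, 1 was higher and 3 lower at L4, and 1 was higher and 1 lower in adults; gsto-2 was higher at both stages (1.84 and 1.64) at a mean level of at most 1.32 CPM. Of 9 other conjugating enzymes, 2 were higher and 3 lower at L4 and 2 higher and 2 lower in adults, among them the methyltransferase-like comt-3 (1.31 and 0.46) and comt-4 (lower in adults, -2.23).

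Conjugates leave the cell through ABC transporters of the mrp and pgp families. Of 23 such genes, 9 were higher and 9 lower at L4, and 6 were higher and 6 lower in adults. For these counts and those below, the shares over all genes were 35.5% higher and 22.6% lower at L4, and 28.6% and 26.5% in adults. pgp-8 was higher at both stages (4.16 and 3.505), with 23.7 and 25.1 CPM in hira-1(-) L4 animals, against 1.405 and 1.32 CPM in N2 L4 animals, and pgp-2 was lower (-1.08 and -0.70), with 82.5 and 89.4 CPM in hira-1(-) L4 animals, against 182 and 181 CPM in N2 L4 animals. Of 19 regulators, 6 were higher and 5 lower at L4, and 5 were higher and 3 lower in adults. skn-1 itself, named here after its values were seen, was higher by 0.19 at L4 and 0.24 in adults (adjusted p = 0.00386 and 8.41e-04). Its inhibitor wdr-23 did not pass at either stage (0.074 and 0.058). Values of this size moved with the settings where they were refitted. At L4 gst-1 (0.18) was at 0.076 with at least 1 CPM in 3 libraries and at 0.31 with library totals, and skn-1 was not refitted. sek-1, a kinase upstream of SKN-1, was lower at both stages (-0.47 and -0.37). Of 13 other stress genes that depend on SKN-1 or accompany it, 2 were higher and 5 lower at L4, and 3 were higher and 5 lower in adults. The catalase gene ctl-3 was higher (1.21 and 1.55), and sod-3, a superoxide dismutase gene, was lower (-1.01 and -2.38).

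The oxidising enzymes that act before conjugation had calls in both directions, as had all genes. At L4 35.5% of all genes were called higher and 22.6% lower, and in adults 28.6% and 26.5%. Of 64 cytochrome P450 genes tested of 80 listed, 24 were higher and 23 lower at L4, and 22 were higher and 17 lower in adults. cyp-35A2 was lower at both stages (-1.33 and -1.18), with 61.3 and 65.9 CPM in hira-1(-) L4 animals, against 159 and 161 CPM in N2 L4 animals. Of 5 flavin-containing monooxygenase genes, 1 was higher and 1 lower at L4, and 3 were higher and 1 lower in adults; fmo-2, a gene known to respond to stress and diet, had 8.83 and 5.32 CPM in hira-1(-) adults, against 0.167 and 0.0718 CPM in N2 adults (log2 5.88 ± 0.41, adjusted p = 1.03e-07). Of 30 short-chain dehydrogenase genes, 11 were higher and 10 lower at L4, and 4 were higher and 13 lower in adults. dhs-3, which encodes a lipid droplet protein, was lower at both stages (-0.98 and -1.31).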

How the data were processed

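RSEM output was deposited by the authors as estimated counts, together with a table of log2(FPKM + 1); this follows from the deposited values and the submitters' processing notes, where the tools are Bowtie 1.0.1, SAMtools 0.1.19 and RSEM 1.2.15 and the build is ce10. The strand setting of counting was not given in the sources used. The labels identify 8 of the 18 columns (1 by a name with a digit for a letter), and 10 columns were left out of every step, so L1 was not analysed here. Names were looked up by sequence name in a WBcel235 table (44080 of 45461 rows matched); its build differs from that of the files, so coordinates are not printed.

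Rounded counts were fitted in edgeR 4.0.16 (R 4.3.3) with TMM scaling and the default expression filter (count 10, total 15). The model had 4 group means, robust quasi-likelihood dispersion and 4 residual degrees of freedom; p-values were adjusted by Benjamini-Hochberg over 16770 genes, with 0.05 as threshold. The common biological coefficient of variation was 6.26%. Replicates of a group varied beyond counting noise, with a chi-square of 5.44 to 17.9 per degree of freedom. FPKM levels are the deposited values with the log2 and the added 1 undone. Simulated counts with known changes, drawn from the dispersions of these libraries, were used to check the code. They follow the model of the fit by design, so they do not test the calls made from 2 libraries per group.

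The members, gene lists and named genes were chosen with earlier results of these data known. Named per genotype comparison and family were the 6 largest changes in each direction with a mean of at least 5 CPM and no overlap. Also named were the 3 largest per family and direction for the interaction, the 5 per family with the highest FPKM, 10 genes of known use, and 2 genes per list. Others are marked, except pho-1, wdr-23 and the members named for low counts, neighbour runs or likeness. Alternative settings comprised library totals and RLE in place of TMM, 2 other filters (none, and at least 1 CPM in 3 libraries), DESeq2 1.42.0, a fit of the compared groups alone, the replicate number as a block, limma 3.58.1 on the log2 FPKM table, and leaving out each library. Where leaving out a library left 1 in its group, that library was assumed to vary like the other groups.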

Additional observations from a re-analysis of the deposited data

Results flagged for a closer look

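Of 51 ugt and gst genes (44 from the rule for named genes and 7 chosen later), 28 are taken up here, with hira-1, because the genotype difference of hira-1(-) over N2 differed between adults and L4 by the interaction test (adjusted p below 0.05). The 51 were chosen partly for large changes, so their share says nothing of the families; among all 100 members tested 42 passed, against 50.4% of all genes. Values are the log2 genotype difference in adults minus that at L4.

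Among ugt genes the adult difference was higher than the L4 one for ugt-4 (1.68), ugt-66 (1.59), ugt-52 (1.47), ugt-30 (1.43), ugt-8 (1.34), ugt-6 (1.29), ugt-1 (0.87), ugt-53 (0.85), ugt-47 (0.72) and ugt-21 (0.58). It was lower for ugt-11 (-2.38), ugt-63 (-2.22), ugt-44 (-1.63), ugt-43 (-1.56), ugt-65 (-1.42), ugt-39 (-0.57), ugt-46 (-0.54) and ugt-22 (-0.40). The calls of ugt-39 and ugt-53 were lost in 4 and 3 of 15 alternatives, among them without hira-1(-) L4 replicate 1 and without hira-1(-) adult replicate 2 (adjusted p 0.00996 to 0.144 and 0.00214 to 0.109); for ugt-39 also without N2 L4 replicate 1 or N2 adult replicate 1. ugt-21 lost its call with DESeq2 (0.00262 to 0.0685).

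Among gst genes the adult difference was higher for gst-33 (2.42), gst-35 (1.54), gst-28 (0.51) and gst-1 (0.18), and lower for gst-19 (-1.69), gst-24 (-0.86), gst-4 (-0.79), gst-13 (-0.28), gst-7 (-0.26) and gst-10 (-0.25). The small interactions of gst-1, gst-7, gst-10 and gst-13 were lost in 7 or 8 of 15 alternatives, for gst-7 and gst-10 and gst-13 among them library totals and without N2 L4 replicate 1 (adjusted p 0.0035 to 0.354 for gst-1, 0.00724 to 0.216 for gst-7, 0.00608 to 0.304 for gst-10 and 0.00859 to 0.307 for gst-13). For hira-1 itself the value was -0.91, the transcript being lower in hira-1(-) by more in adults.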

How the results depend on the processing

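Of 2391 values recomputed for 51 ugt and gst genes, 2215 kept direction and side of the threshold, 89 lost the call, 33 gained it and 54 changed sign, 51 of these with no call in either setting (log2 fold change at most 0.39 in size in the fit reported). The 3 that were called in one of the settings were ugt-62 at L4 (-0.016 without N2 L4 replicate 1, in a range of -0.016 to 0.20 with 1 library left out), ugt-47 in adults (0.14 with library totals) and the interaction of ugt-57, which did not pass the main test (-0.89 with limma on log2 FPKM). Of the 68 members called at L4, 57 to 68 stayed called in the same direction over 16 alternatives, with the fewest without N2 L4 replicate 1; of 61 in adults, 52 to 61; of 42 interactions, 34 to 42 over 15. The higher gst genes at L4 numbered 14, and 8 to 13 with 1 library left out. The lower gst genes in adults numbered 7, and 4 with limma on log2 FPKM. For the interaction, higher gst genes numbered 5, with 8 under library totals, 9 at 1 CPM in 3 libraries and 3 to 10 with 1 library left out (10 without N2 L4 replicate 1); lower gst genes numbered 8, with 5, 4 and 3 to 7 under the same settings. The cause was not tested. Restricting the fit to the groups compared does not apply to the interaction, which uses all groups. Library totals moved the median of all genes to 0.24 at both stages and the ugt medians to 0.018 and 0.033, turning their sign. Deviations of same-numbered replicates had small correlations over all genes, -0.003 between the genotypes at L4 and 0.066 in adults. Between the stages they were -2.3e-04 in N2 and 0.048 in hira-1(-). With 2 libraries per group and noise of single genes, such values cannot show whether equal numbers share a culture or preparation. With a replicate block 67 of 68 L4 calls, 61 of 61 adult calls and 42 of 42 interactions stayed. Members under about 5 CPM rest on few counts, and 2 libraries per group limit small changes.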
